A study of Equus caballus with 4 samples.

Results

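Prefoldin is a chaperone complex of the cytosol that takes newly made actin and tubulin chains from the ribosome and hands them to the chaperonin CCT, in which they fold. It is built from alpha-type subunits (VBP1, also called PFDN3, and PFDN5) and beta-type subunits (PFDN1, PFDN2, PFDN4 and PFDN6). The complex is best known for keeping up the supply of cytoskeletal proteins, on which a cell that is turning into a muscle fibre draws heavily. PFDN2 and PFDN6 are also found in a related complex around URI1, UXT and PDRG1 that works with the R2TP chaperone.

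All 6 subunit genes were on the horse array, with 8 of the 43603 gene probes, taken by their gene symbol (24998 gene names in all). PFDN4 and VBP1 had a pair of overlapping probes each, and the other subunits had 1 probe each. PFDN6 was chosen by its high log2 ratio of treated over control on these same arrays, so its values are a description with no test. The other 5 subunits were taken because they belong to the complex. PFDN6 went opposite to the rest of the complex. It was 1.77-fold higher with treatment on average, with a log2 ratio near 0 on 1 of the 4 arrays, while the means of the other 7 probes were all below 0. Both VBP1 probes and 1 of the 2 PFDN4 probes passed the test (3 of 7, against 17.1% of all tested probes), and each of these calls was lost when any 1 of 3 arrays was left out.

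Expression was measured in equine satellite cells (ESC), the stem cells of skeletal muscle, from horse m. semitendinosus on day 3 of differentiation. Treated cells were kept for 24 h with 0.125 µM gamma-oryzanol (GO, ferulic acid esters of plant sterols from rice bran), with 3 mM H2O2 present in the last 1 h. Control cells had no GO but had the same vehicle, DMSO. The labels do not state whether they were given H2O2, whereas the study describes the control as incubated with H2O2, so the contrast is given here as GO and H2O2 over control. According to the methods the muscle came from 6-month-old stallions and the best primary cell line was chosen for the work. The labels call the 4 arrays biological replicates, but the cultures may share a horse, and p-values then measure the spread between these arrays.

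Each of the 4 arrays, all on 1 slide, held treated RNA in red (Cy5) and control RNA in green (Cy3). The dyes were never swapped, so an effect of the dye and an effect of treatment cannot be told apart for any probe. Between 54.9% and 61.3% of gene spots were well above background in green and between 56.7% and 61.4% in red, and 24230 probes were tested. The ratios correlated across probes with Pearson's r between 0.174 (replicates 2 and 3) and 0.697 (replicates 3 and 4). Of 9 satellite cell and muscle markers, 8 were measured in both channels on every array and PAX7 had no probe. Adipocyte markers were well above background on all arrays for 0 of 3 with a probe, and the 4 endothelial markers were above background on none. Of the leukocyte markers CD68 and CD14 were measured, and 5 of 7 fibroblast markers were. The log2 ratio is treated over control, and errors are SD over 4 arrays.

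The probes are shown because PFDN6 rests on a single one and because overlapping bases decide how independent the paired probes are. Capitals mark the bases that both probes of a gene share, and each sequence is 60 bases long, from the array files, written 5′ to 3′. Positions are in the build of the file headers, EquCab1, in which VBP1 lies on the minus strand and the others on the plus strand. Exons and UTRs were not assigned.
PFDN6, chr20:27150427-27150567: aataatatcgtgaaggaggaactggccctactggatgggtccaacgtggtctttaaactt
VBP1 probe 1, chrUn:279266829-279268906: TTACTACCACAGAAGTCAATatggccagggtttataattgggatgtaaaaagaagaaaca
VBP1 probe 2, chrUn:279266869-279268946: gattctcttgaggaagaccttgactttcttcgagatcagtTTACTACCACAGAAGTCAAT
PFDN4 probe 1, chr22:41569311-41569370: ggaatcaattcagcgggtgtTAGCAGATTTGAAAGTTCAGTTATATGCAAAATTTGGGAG
PFDN4 probe 2, chr22:41569331-41569390: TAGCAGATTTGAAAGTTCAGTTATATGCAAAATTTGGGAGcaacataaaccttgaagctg
PFDN5, chr6:70342462-70342521: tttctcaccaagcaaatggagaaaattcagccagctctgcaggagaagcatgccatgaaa
PFDN2, chrUn:308952450-308952509: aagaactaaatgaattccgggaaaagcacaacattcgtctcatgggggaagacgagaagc
PFDN1, chr14:35802466-35834501: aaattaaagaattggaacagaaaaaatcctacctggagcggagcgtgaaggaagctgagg

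The PFDN4 probes share 40 bases and the VBP1 probes share 20, so each pair reads the same stretch of transcript and is no replicate. The positions of PFDN6 (141 bases), VBP1 (2078 bases) and PFDN1 (32036 bases) span more than the probe, whereas those of PFDN2, PFDN4 and PFDN5 are as long as the probe. The longest run that the PFDN6 probe has in common with a probe of any other gene was 13 bases, shared with 2 probes, and for the other subunits it was 12 to 15 bases. The GC content was 45% for PFDN6 and 35% to 45% for the others. All 8 probes were well above background in both channels on all 4 arrays, and 0 of their spots had an outlier mark.

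PFDN6, a beta-type subunit, had log2 ratios of 1.33, 1.08, 0.89 and 0.02 on replicates 1 to 4. The first 3 arrays were high and replicate 4 lay at the level of no difference, so the mean of 0.83 ± 0.57 (SD, n = 4) describes none of the arrays well. Without replicate 4 the mean was 1.099. The SD was larger than that of 99.3% of tested probes, whose median SD was 0.0934, and 49 tested probes had a mean at or above that of PFDN6, itself included.

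**Figure D1:**
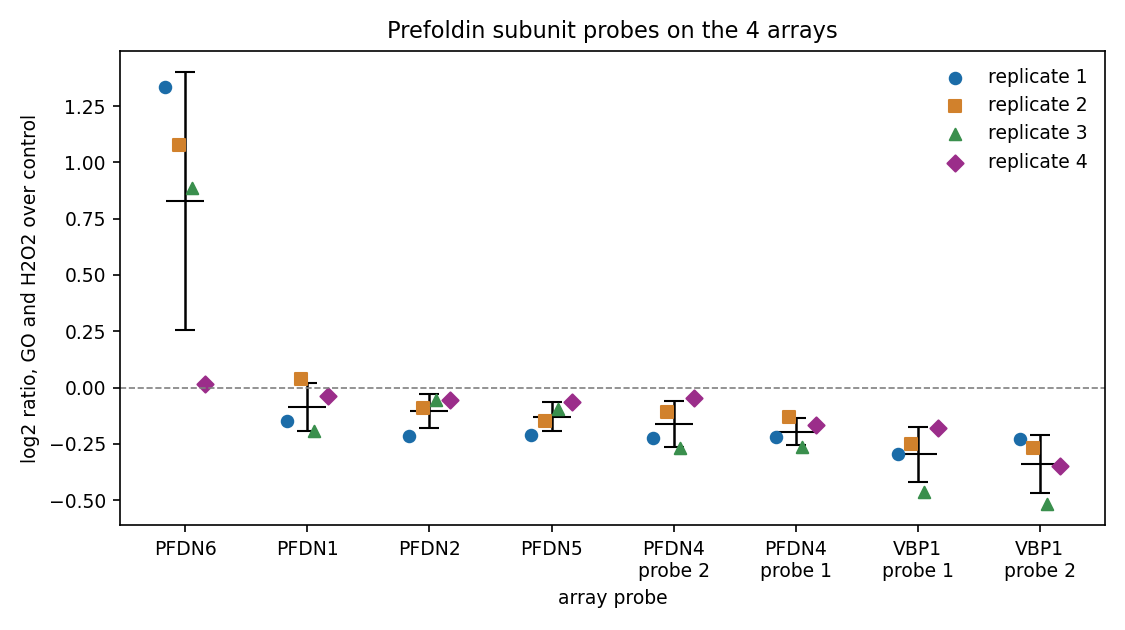
Log2 ratio of GO and H2O2 over control (y axis) for the 8 prefoldin probes (x axis), with 1 point per array, the mean as a horizontal bar and the SD over 4 arrays as the error bar. PFDN6 lies between 0.89 and 1.33 on replicates 1 to 3 and at 0.02 on replicate 4, while the other probes lie between −0.52 and 0.04.

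The red mean intensity of the PFDN6 spot, before correction, was 1971, 1978, 1246 and 481 on replicates 1 to 4. In green it was 664, 761, 557 and 455. Thus replicate 4 differed mainly in the treated channel. On the normalised log2 scale the treated signal was 10.53, 10.76, 10.44 and 8.96, and the control signal was 9.20, 9.68, 9.55 and 8.95. Replicate 4 lay below the mean of the other 3 arrays by a factor of 3.05 in red and 1.44 in green. Of the 24230 tested probes, PFDN6 had the deepest drop of replicate 4 in red, and in green 58 probes had a drop at least as deep, itself included.

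On replicate 4 the intensity of the PFDN6 spot was 10.2 times the local background in red and 9.29 times in green, against 29.7 to 47.1 in red and 10.9 to 17.0 in green on the other arrays. Its pixels varied there with a coefficient of variation of 13.4% in red and 12.2% in green, against 11.5% to 16.1% on the other arrays. The 26 tested spots within 3 rows and columns of it had median log2 ratios of −0.08, −0.08, −0.03 and −0.01 on replicates 1 to 4, and their highest values were 0.51, 0.39, 0.39 and 0.39. PFDN6 was above all of these neighbouring spots on replicates 1 to 3. The other 7 prefoldin probes moved on replicate 4 by −0.17 to 0.35 in red and by −0.23 to 0.20 in green on the log2 scale. Why replicate 4 differed was not tested.

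**Figure D2:**
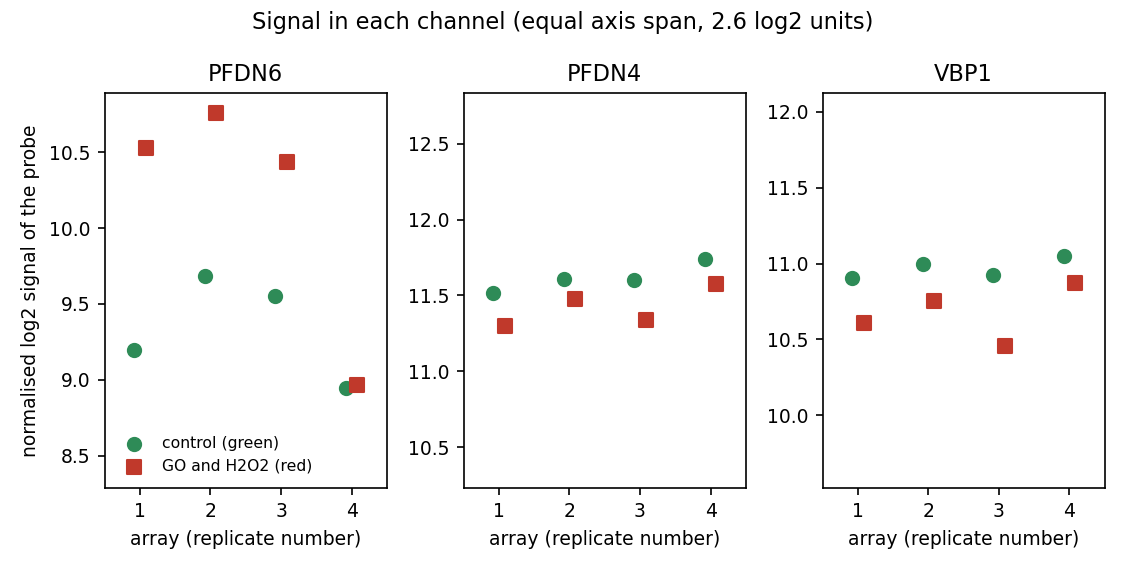
Normalised log2 signal (y axis, the same span in each panel) of the PFDN6, PFDN4 (probe 1) and VBP1 (probe 1) probes in the control and treated channels on the 4 arrays (x axis). The treated signal of PFDN6 is 10.44 to 10.76 on replicates 1 to 3 and 8.96 on replicate 4, while VBP1 and PFDN4 lie lower in the treated channel on every array.

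VBP1 is an alpha-type subunit that also binds the von Hippel-Lindau protein. Probe 1 had log2 ratios of −0.30, −0.25, −0.46 and −0.18, with a mean of −0.30 ± 0.12 (adjusted p = 0.0228 by limma). Probe 2 had −0.23, −0.27, −0.52 and −0.35, with a mean of −0.34 ± 0.13 (adjusted p = 0.0195 by limma). Control exceeded treated on all 4 arrays, 1.23-fold at probe 1 and 1.27-fold at probe 2, and the 2 probes differed by at most 0.17 on any array. On the normalised log2 scale the signals of probe 1 over the 4 arrays were 10.46 to 10.87 in treated and 10.90 to 11.05 in control.

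PFDN4, a beta-type subunit, had log2 ratios of −0.22, −0.13, −0.27 and −0.17 at probe 1, with a mean of −0.20 ± 0.06 (control over treated 1.15-fold, adjusted p = 0.0296 by limma). Probe 2 had −0.22, −0.11, −0.27 and −0.05, with a mean of −0.16 ± 0.10 (adjusted p = 0.0673 by limma). Both probes were below 0 on all 4 arrays and differed by at most 0.12. The call rests on which of the overlapping probes is read and on the processing. Both passed with the deposited processed signals (adjusted p = 0.0335 and 0.0410 by limma), and neither passed with median centring or the methods' t-test.

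Neither the other alpha-type subunit nor the remaining beta-type subunits passed the test. PFDN5, the alpha-type subunit also known as a MYC-binding protein (MM-1), had −0.21, −0.15, −0.09 and −0.06, with a mean of −0.13 ± 0.065 (adjusted p = 0.0784 by limma). It did pass with the deposited processed signals (−0.17, adjusted p = 0.0458 by limma). The same held after the medians of spot rows and columns were subtracted (−0.16, adjusted p = 0.0489 by limma). PFDN2, which is shared with the URI1 complex, had −0.21, −0.09, −0.06 and −0.06, with a mean of −0.10 ± 0.075 (adjusted p = 0.140 by limma). PFDN1 had −0.15, 0.04, −0.19 and −0.04, with a mean of −0.085 ± 0.11 (adjusted p = 0.267 by limma). PFDN5 and PFDN2 were below 0 on all 4 arrays and PFDN1 on 3, and their means lay within 0.13 of 0.

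In all, 3 of the 7 probes other than PFDN6 passed the threshold, all lower with treatment, from 2 of the 5 subunits. Over the whole array 17.1% of tested probes passed, 9.49% higher and 7.59% lower, and the median size of the log2 ratio among those that passed was 0.22. Of all tested probes 21.2% were below 0 on all 4 arrays, as were 6 of the 7 prefoldin probes, all but that of PFDN1. The 7 include the overlapping pairs of PFDN4 and VBP1, which are no replicates, so these counts are not of independent probes. No prefoldin probe passed without replicate 1, without replicate 3 or without replicate 4 (0 of 7 each), and 3 passed without replicate 2. With arrays only centred on their median, 0 of 7 passed, and 12 of all 24230 probes did. Their means stayed below 0 in each of these fits.

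The order of the 5 subunits at their brightest probes, from the lowest mean ratio, was VBP1, PFDN4, PFDN5, PFDN2 and PFDN1. VBP1 was below PFDN4 on all 4 arrays, by 0.10 ± 0.078 (exact permutation p = 0.125, two-sided, the smallest that 4 arrays allow). The other neighbours in the order differed by 0.067 ± 0.087, 0.025 ± 0.028 and 0.019 ± 0.11, each on 3 of 4 arrays in that order, with exact permutation p of 0.375, 0.25 and 0.75. After Benjamini-Hochberg adjustment over the 4 pairs the values were 0.5 to 0.75. With 4 arrays this test could not reach the threshold for any pair. By size, the difference of VBP1 from PFDN4 was larger than its SD, and the other 3 differences were smaller than theirs.

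Set against the rest of its complex, PFDN6 was above the median of the other 5 subunits by 1.55, 1.21, 1.08 and 0.08 on the log2 scale. These differences amount to 2.92-fold, 2.31-fold, 2.11-fold and 1.06-fold on replicates 1 to 4, with a mean of 0.98 ± 0.63 on the log2 scale. PFDN6 was also above the highest of the other subunits on every array, by 1.48, 1.04, 0.94 and 0.05. The median of the 5 others was −0.21, −0.13, −0.19 and −0.06 on replicates 1 to 4, with a mean of −0.15 ± 0.068, while that of all tested probes lay between −0.01 and 0.01. Replicate 4 was therefore the array on which both PFDN6 and the median of the other subunits lay closest to 0.

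CCT, the ring-shaped chaperonin that receives its clients from prefoldin, had all 8 subunits measured. All 8 means were below 0, with a median of −0.17 (−0.18, −0.06, −0.26 and −0.20 on replicates 1 to 4), against 0.00296 for all tested probes. With arrays only centred on their median, the CCT median was −0.087, and CCT2, CCT3 and CCT8 were at 0.031, 0.017 and 0.022. The median of the 5 other prefoldin subunits, averaged over arrays, was −0.15. Of the CCT subunits 3 passed (37.5%, against 17.1% of all tested probes), all lower, and 5 did not. Those past the threshold were CCT5 with −0.30 ± 0.12 (adjusted p = 0.0216), CCT4 with −0.28 ± 0.14 (adjusted p = 0.0315, −0.12 with median centring) and CCT7 with −0.25 ± 0.056 (adjusted p = 0.0196, all by limma). CCT2 did not pass at its brightest probe, which stood for it in the count, but 1 of its 2 tested probes passed.

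The phosducin-like proteins, which bind CCT and tune its work, split by direction only through PDCL, whose control signal was dim. TXNDC9 was lower on all 4 arrays with −0.37 ± 0.033 (adjusted p = 0.0119 by limma) and PDCL3 with −0.18 ± 0.043 (adjusted p = 0.0317 by limma). PDCL was called higher, with 0.18 ± 0.08 (adjusted p = 0.0401 by limma). Its value depended on the correction, with 0.03 (adjusted p = 0.604) after the trend over signal was removed by a running median and 0.80 (adjusted p = 0.0449) in the deposited processed signals. The control (green) signal of PDCL stood clearly above background on 0 arrays, and its treated (red) signal on 4. It thus entered the test through the treated channel alone, the side on which it was called higher. With both channels required it was not tested. The call therefore cannot settle its direction.

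In the URI1 complex, which shares PFDN2 and PFDN6 with prefoldin, and R2TP, 8 of 9 genes were measured and 1 passed (12.5%), a share no higher than the 17.1% over all tested probes. This was RUVBL1, an ATPase of R2TP, with −0.18 ± 0.09 (adjusted p = 0.0466 by limma). The median of the 8 was −0.02. The partners of PFDN6 in that complex had −0.13 ± 0.21 for URI1, −0.036 ± 0.057 for UXT and −0.0090 ± 0.15 for PDRG1, and none of the 3 passed the test.

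Downstream of CCT, 6 of 7 tubulin folding cofactors were measured, with a median of −0.002, and 1 passed (16.7%), namely TBCB, which acts on alpha-tubulin, at 0.40 ± 0.085 (adjusted p = 0.0129 by limma). Of 13 cytoplasmic actins and tubulins, the main clients of the pathway, 5 were measured, with a median of 0.0035 (0.16 with median centring), and 1 passed (20%). Both shares are near the 17.1% of all tested probes. Beta-actin (ACTB) was higher on all 4 arrays, at 0.45 ± 0.13 (adjusted p = 0.0149 by limma). After the running median was removed it was 0.22 (adjusted p = 0.0340). The TUBA1C value of −0.04 ± 0.36 came from arrays of both signs. In the folding lists, each call was lost without replicate 1, without replicate 3 and without replicate 4, as well as with arrays only centred on their median. Without replicate 2 the calls of PDCL and PDCL3 were lost too, and 1 of the 3 phosducin-like genes passed.

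**Figure D3:**
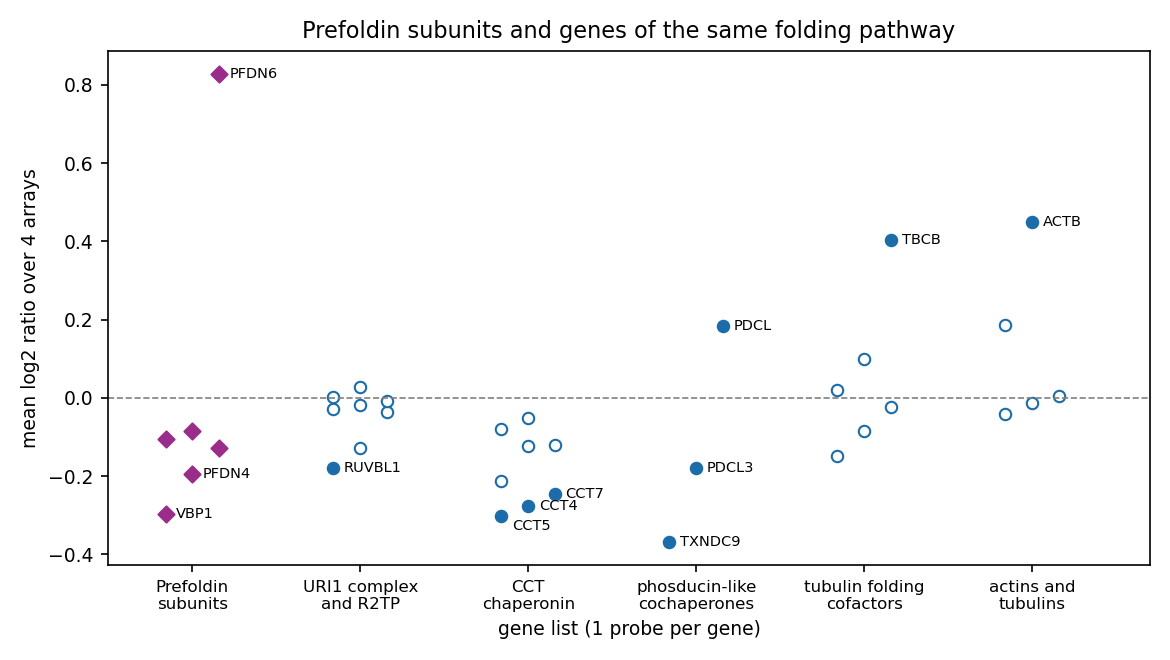
Mean log2 ratio over 4 arrays (y axis) of the 6 prefoldin subunits and of the measured genes in 5 lists of the folding pathway (x axis), with 1 probe per gene. Diamonds are prefoldin subunits, filled circles are list genes past the threshold and open circles are list genes that did not pass. PFDN6 at 0.83 lies above every other gene plotted, and all 8 CCT subunits lie below 0, of which CCT2, CCT3 and CCT8 are above 0 with arrays only centred on their median.

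Of 8 muscle markers measured, 4 were higher with treatment (50%, against 17.1% of all tested probes) and 4 did not pass. Those past the threshold were MYOG (0.33, adjusted p = 0.0212), CKM (0.33, adjusted p = 0.0372), MYH3 (0.25, adjusted p = 0.0377) and TNNT3 (0.44, adjusted p = 0.0125, all by limma). The median of the list was 0.29, 0.18, 0.32 and 0.13 on replicates 1 to 4, and its summed level was 17.3 to 17.6 on the log2 scale in treated and 17.1 to 17.2 in control. Of 5 fibroblast markers measured, 1 passed (20%, near the 17.1% of all tested probes), LUM (−0.43, adjusted p = 0.0131 by limma). The others had 0.30 (COL1A2), 0.23 (COL3A1), −0.099 (DCN) and −0.011 (FAP) at their brightest probes. The mean was above 0 at only 4 of 9 tested COL1A2 probes and 4 of 7 COL3A1 probes. The fibroblast list had a summed level of 18.5 to 18.7 in treated and 18.2 to 18.5 in control. Of 2 leukocyte markers measured, CD14 was lower (−0.17, adjusted p = 0.0385 by limma) and CD68, at 0.0049, did not pass. The leukocyte list had a summed level of 11.7 to 11.9 in treated and 11.8 to 12.0 in control. Each of these 6 calls was lost without replicate 1, without replicate 3, without replicate 4, with median centring and with the methods' t-test. The CD14 call was also lost without replicate 2, with the deposited processed signals (adjusted p = 0.0515 by limma) and with offset 0. That of MYH3 was lost with the processed signals (0.16, adjusted p = 0.144 by limma), with offset 0 and after the running median was removed. CKM, MYH3, TNNT3 and CD14 did not pass with no replicate block. Fewer cells of a type and less RNA per cell cannot be told apart in such bulk samples, and the part of these markers in the prefoldin ratios was not tested.

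PFDN6 lies in a gene-dense stretch of chromosome 20. Within 100 kb of its probe were 37 other probes, of which 36 were tested, with 14 gene symbols, of which 13 were tested. The nearest gene, RGL2 at 1.84 kb, had 0.07 ± 0.11 (adjusted p = 0.385 by limma), and WDR46 at 8.55 kb had −0.13 ± 0.093 (adjusted p = 0.101 by limma). At their brightest probes 3 of the 13 genes passed, a share near the 17.1% of all tested probes. These were RPS18, a ribosomal protein gene 11.3 kb away, with 0.55 ± 0.10 (adjusted p = 0.0105), RING1, a Polycomb ubiquitin ligase, with 0.18 ± 0.0076 (adjusted p = 0.0288), and ZBTB22, a zinc finger gene, with −0.25 ± 0.079 (adjusted p = 0.0221, all by limma). RPS18 was at −0.07 (adjusted p = 0.445) after the running median over signal was removed, so that its direction depends on the scaling. ZBTB22 was at −0.79 in the deposited processed signals and at −0.46 with offset 0, and it was not well above background in both channels on every array. All 3 calls were lost without replicate 1, without replicate 3, without replicate 4, with median centring and with the methods' t-test. That of RING1 was also lost with no replicate block (adjusted p = 0.199 by limma). None of the neighbours had the pattern of PFDN6, with 3 high arrays and replicate 4 near 0. KIFC1, a mitotic kinesin 87.3 kb away, varied most of the neighbours, with SDs of 0.47 to 0.51 at its 5 probes and 0.38, 0.59, −0.53 and −0.01 at the first of them.

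**Figure D4:**
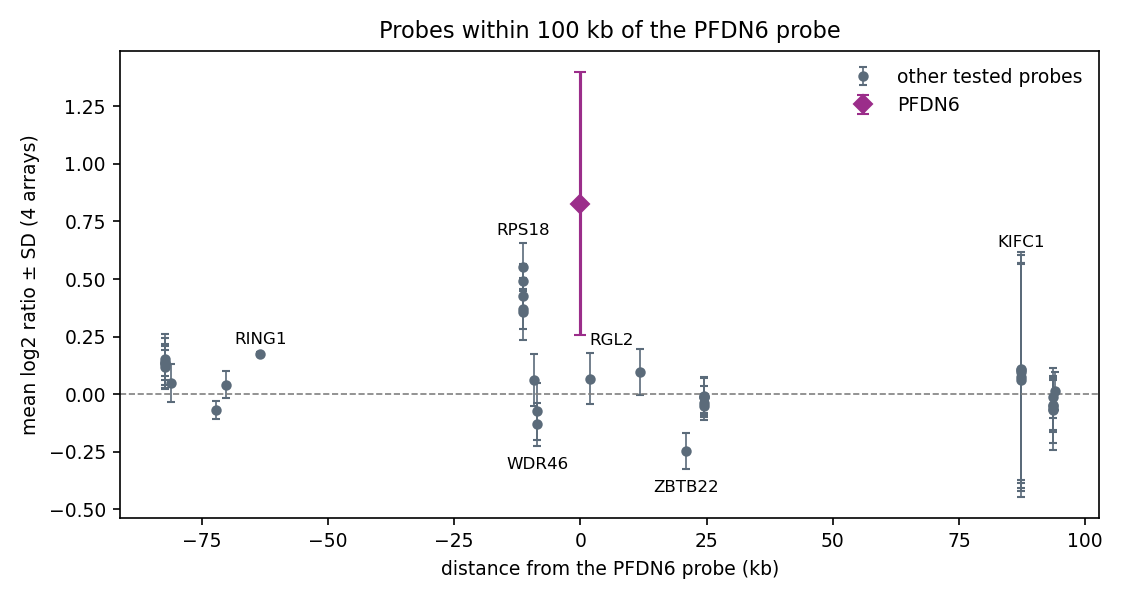
Mean log2 ratio with SD over 4 arrays (y axis) of the tested probes within 100 kb of the PFDN6 probe, by distance in kb (x axis). PFDN6 at 0.83 ± 0.57 lies above all of them, and the 5 RPS18 probes, 11.3 kb away, lie between 0.36 and 0.55.

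The genes most like PFDN6 over the 4 arrays were found by the root mean square distance of the log2 ratios. CLTA, the clathrin light chain A gene on chromosome 25, was nearest at 0.326, with 0.78, 0.81, 0.68 and −0.04. RN18S followed at 0.413 (0.97, 0.70, 0.80 and 0.65) and EML2, a microtubule-associated protein gene, at 0.418 (1.16, 0.34, 0.80 and 0.35). DHRS3, a retinaldehyde reductase gene, had a distance of 0.445 (0.54, 0.90, 0.52 and 0.04), and HMOX1, haem oxygenase 1, of 0.494 (0.50, 0.57, 0.85 and 0.16). CLTA and DHRS3, like PFDN6, were near 0 on replicate 4, whereas RN18S was high on all 4 arrays. The mean was above 0 at every tested probe of CLTA (4 of 4) and of DHRS3 (5 of 5).

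**Figure D5:**
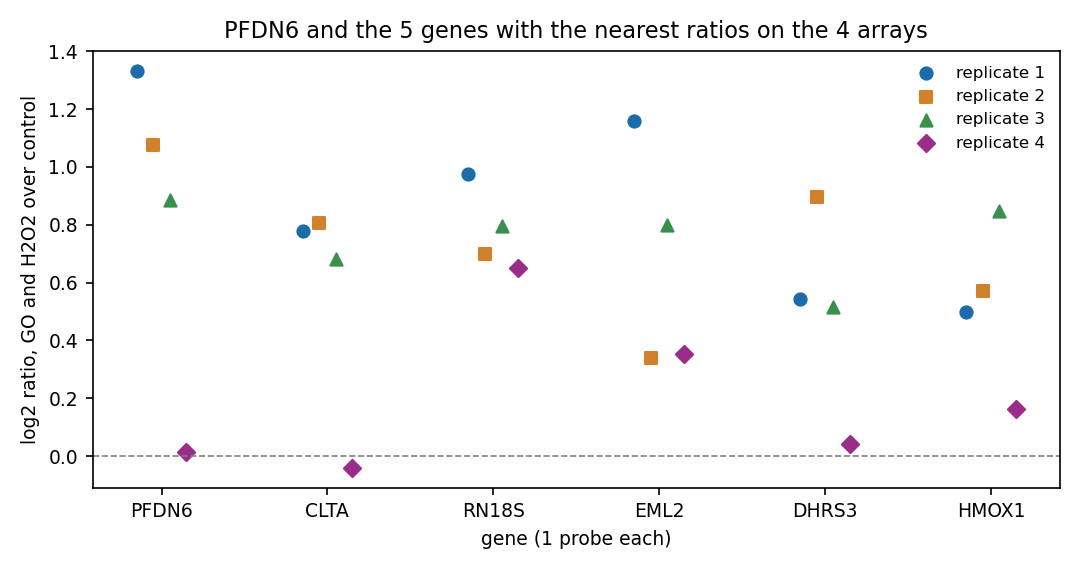
Log2 ratio of GO and H2O2 over control (y axis) on each array for PFDN6 and the 5 genes nearest to it (x axis). Replicate 4 is at 0.02 for PFDN6, −0.04 for CLTA and 0.04 for DHRS3, and at 0.65 for RN18S.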

How the data were processed

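Spot intensities of both channels were deposited as extracted by the authors in Agilent Feature Extraction 10.10.1.1 (per the file headers), together with the log10 ratio of processed red over green. Values in the series matrix equalled these deposited log10 ratios (largest difference 0, column medians 0), so its scale, centring and direction were known, and 0 value columns were left unmapped. The 45220 spots of an array comprised 43803 gene and 1417 control spots.

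Mean intensities were corrected with normexp (offset 50) against background medians and normalised by loess within each array, with control spots at weight 0. Spots with an outlier mark (7 to 16 gene spots per array) were left out, spots of a probe were averaged, and 0 gene spots were saturated. Probes well above background on all 4 arrays in red or in green were kept (24230, or 55.6%, with 13692 gene names). Means of the log2 ratios were tested against 0 with limma 3.58.1 in R 4.3.3, as a two-sided test, p-values were adjusted over these probes (Benjamini-Hochberg), and the threshold was 0.05. The scripts were tested on simulated data. The number of arrays limits the precision.

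The members and lists were chosen with earlier results of these data known. Named genes were all prefoldin probes, list members past the threshold (at most 4), symbols within 100 kb of PFDN6 and the 5 genes nearest in ratio. The brightest tested probe stood for a gene, and markers and genes given beside them were named after their values were seen. All 6 subunits were found in a horse RefSeq gene table, 2 by accession. Alternatives were the deposited processed signals, other background corrections, normalisations and filters, other limma settings, the methods' t-test, a fit without the array as a block, the mean over probes, and each array left out. The microRNA arrays of the study were not used here.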

Additional observations from a re-analysis of the deposited data

Results flagged for a closer look

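Of 58 sets of 4 log2 ratios checked with Dixon's limit of 0.829, 2 held an array far from the rest, and chance alone gives about 1 in 20. TBCB had 0.28 on replicate 2 against 0.43 to 0.45 on the other arrays (gap over range 0.847). CLTA, the gene nearest to PFDN6, had −0.041 on replicate 4 against 0.68 to 0.81 on the others (gap over range 0.852). It was picked for ratios like those of PFDN6, which are near 0 on replicate 4, so the chance rate does not apply to it.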

How the results depend on the processing

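PFDN6 stayed between 0.66 (without replicate 1) and 1.099 (without replicate 4) in mean log2 ratio over the alternatives that can change a ratio, and its excess over the median of the other subunits between 0.79 and 1.28. That median stayed between −0.20 and −0.13. The calls depended on the settings. Median centring gave 12 probes past the threshold in all, the methods' t-test gave 5, and the fit with no replicate block, in which the pairing of the channels on an array was ignored, gave 594, against 4137. Leaving out 1 array gave 0 (without replicate 4) to 3899 (without replicate 2), with 6694 at an unadjusted p under 0.05 for the first. The count of 3 prefoldin probes became 5 with the deposited processed signals and with the series matrix, and 4 with row and column medians. It became 0 with median centring and the methods' t-test, 1 with no replicate block, and 0 to 3 with 1 array left out. At an unadjusted p under 0.05, 1 of the 7 passed with median centring, 4 with the methods' t-test and 3 to 5 with 1 array left out. With median centring and the methods' t-test 0 genes passed in each folding list, and 0 in the URI1 and R2TP list also with the processed signals, the series matrix, no background correction, offset 0, row and column medians and no replicate block. With no replicate block 1 phosducin-like gene passed, and trend and robust settings gave 2 tubulin cofactors. Leaving out 1 array gave 0 to 1 in the URI1 and R2TP, phosducin-like, tubulin cofactor and actin lists and 0 to 4 for CCT. The phosducin-like median was −0.27 when both channels had to be above background, and the URI1 and R2TP median lay between −0.053 and −0.0051 with 1 array left out. No prefoldin subunit changed sign in its mean. With 4 arrays and 1 PFDN6 probe, the spread on PFDN6 sets the precision, and a dye effect cannot be told apart from treatment.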

Other observations

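Among all tested probes, 8 were at least 0.5 on replicates 1 to 3 and within 0.1 of 0 on replicate 4, the pattern of PFDN6, and 2 showed it downwards. The named genes were BNC2, CLTA, DHRS3 and PFDN6 above 0, and ANXA6 and ITGB1 below. With replicate 2 as the array near 0 the pattern was found for 4 probes above and 2 below, and with replicate 1 or 3 for 0. These limits were chosen after the PFDN6 values were seen.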
